A study of Mus musculus with 40 samples.

Results

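The data were read for 10 genes of the MHC class I antigen presentation pathway in mouse embryonic stem cells (mESCs) that had lost *Ccnc* or *Cdk8*. The genes were taken by name from the 55536 genes counted: *B2m*, *H2-K1*, *H2-D1*, *Tap1*, *Tap2*, *Tapbp*, *Psmb8*, *Psmb9*, *Psmb10* and *Nlrc5*. All 10 passed the filter on low counts in both experiments, though *Psmb8* could pass it through knockout libraries alone.

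MHC class I molecules display short peptides from the inside of the cell at its surface, where CD8 T cells read them. A heavy chain, encoded in the mouse by *H2-K1* or *H2-D1*, pairs with the invariant light chain β2-microglobulin, encoded by *B2m*, and the complex leaves the endoplasmic reticulum once a peptide is bound. The peptides are cut by the proteasome, in which the immunoproteasome subunits *Psmb8*, *Psmb9* and *Psmb10* can replace the constitutive subunits *Psmb5*, *Psmb6* and *Psmb7*, are carried into the endoplasmic reticulum by the TAP1 and TAP2 transporter, and are loaded with the help of tapasin, encoded by *Tapbp*. *Nlrc5* encodes the transactivator of these genes, which acts at their X and Y promoter boxes, and interferons raise most of them. Embryonic stem cells are known for low class I expression.

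RNA was sequenced from WT mESCs (2 biological replicates), from the independent clones D1, G2 and H5, which lack *Ccnc*, and from B9, H4 and C8, which lack *Cdk8*, all grown without feeder cells on gelatin with serum and LIF. Each clone or replicate gave a DMSO library and a library from cells exposed to 900 nM AZD6738, an inhibitor of the kinase ATR (ATRi), for 4 h. *Ccnc* encodes cyclin C and *Cdk8* its kinase partner, both of the kinase module of Mediator, and each KO line was 1 clone. The *Ccnc* KO and the *Cdk8* KO libraries were sequenced in separate multiplexes, each with the same 4 WT libraries, so that the 2 knockouts share their controls.

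The 20 libraries held 30899823 to 67274049 counts. WT replicate 2 under ATRi was left out of the main tests, as the study left it out, and its values are given where they matter. This left 3 WT and 6 KO libraries in each multiplex. *Ccnc* measured 4.24 to 7.41 CPM (counts scaled to the size of the library) in the *Ccnc* KO libraries against 44.2 ± 1.10 CPM (SD, n = 3) in WT. *Cdk8* measured 57.1 ± 3.98 CPM (SD, n = 6) in the *Cdk8* KO libraries against 73.8 ± 4.37 CPM (SD, n = 3) in WT, so the transcript level separates this knockout from WT only weakly. Markers of ES cells were high throughout, with sums of 3238 to 3791 CPM in *Ccnc* KO against 3667 to 4053 CPM in WT, which overlap, and of 2762 to 3576 CPM in *Cdk8* KO against 3586 to 3949 CPM in WT, which do not. Of these 6 markers 2 fell in the former and 1 in the latter knockout. Markers of primitive endoderm also moved with genotype: their sum was 127 to 146 CPM in WT, 200 to 334 CPM in *Ccnc* KO and 359 to 570 CPM in *Cdk8* KO libraries, and 7 of 9 and 9 of 9 of them rose. Summed fibroblast markers were 5.77 to 7.26 CPM in WT, 8.30 to 13.1 CPM in *Ccnc* KO and 8.93 to 25.7 CPM in *Cdk8* KO libraries, with both libraries of clone H4 at the top (22.5 and 25.7 CPM); none was called, and *Lum* had 0 counts in 9 of 9 libraries of the *Ccnc* multiplex and 7 of 9 of the *Cdk8* multiplex. Leukocyte markers summed to 0.672 to 1.46 CPM, with *Adgre1* at 0 counts in 9 of 9 and 8 of 9 libraries. The part of these other cell types in the class I values was not tested. In RNA from whole cultures, more RNA per cell and more cells that express a gene cannot be told apart.

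In WT cells under DMSO the 10 genes spanned a wide range of levels per length, that is, CPM per kilobase of annotated exon. The immunoproteasome subunit *Psmb10* stood at the top with 55.4 ± 7.91 CPM per kb (SD, n = 2, *Ccnc* multiplex). The heavy chain gene *H2-K1* followed at 7.64 ± 0.361, then *Tapbp* at 5.05 ± 0.241, *H2-D1* at 4.44 ± 0.038 and *B2m* at 3.97 ± 0.0425 CPM per kb. The order of *H2-D1* and *B2m* turned in the *Cdk8* multiplex, where the same libraries gave 4.00 ± 0.157 and 4.90 ± 0.306 CPM per kb. *Tap1* lay lower, at 0.879 ± 0.154 CPM per kb, and *Psmb9* (0.348), *Tap2* (0.159), *Nlrc5* (0.0876) and *Psmb8* (0.0296 CPM per kb) formed the bottom of the order. The constitutive proteasome subunits were above their counterparts, at 109 CPM per kb for *Psmb5*, 336 for *Psmb6* and 88.8 for *Psmb7*. The annotated exon of a gene may be longer than the transcript made, so the order of levels between genes is rough.

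*B2m* lies on chromosome 2, *Psmb10* and *Nlrc5* on chromosome 8, and the other 7 on chromosome 17 (GRCm38). *Psmb9*, *Tap1*, *Psmb8* and *Tap2* are neighbours at chr17:34181987-34216321, and *Psmb9* and *Tap1* start on opposite strands with overlapping ends. *H2-K1* (chr17:33996017-34000347, minus strand), *H2-D1* (chr17:35262730-35267499, plus strand) and the other class I heavy chain genes are close in sequence, so reads may be shared between them and their counts are less certain than those of *B2m* (chr2:122147686-122153083, plus strand). *Tapbp* shares 149 exonic bases with *Zbtb22* on the same strand.

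RefSeq promoters (GRCm38.p6, 250 bases before to 50 after each start) were at hand for 8 of the 10 genes, all but *Tap2* and *Nlrc5*. Both strands of the bases before the start were searched for 5 short motifs. The X2 box core TGACG was in the promoters of 5 of the 8 genes (*B2m*, *H2-K1*, *H2-D1*, *Psmb9* and *Tap1*) and in 17.8% of all promoters. The Y box core CCAAT was in those 5 and in *Tapbp*, against 33.8% of all promoters. *Psmb9* and *Tap1* share the bases that match, read from either side. The interferon-stimulated response element core GAAANNGAA was found for *B2m* alone (7.13% of all promoters), the gamma-activated site TTCNNNGAA for *Psmb8* alone (7.02%), and the pattern GGGANTTCC for none (1.43%). That pattern is narrower than the κB consensus, which was not searched, so it does not count κB sites. Likewise, GAAANNGAA is 1 exact form of the interferon-stimulated response element, and variants of it were not searched. A promoter without a match, such as that of *H2-K1* or *H2-D1*, is therefore not shown to lack the element. *Psmb10* held none of the 5. In *B2m*, *H2-K1* and *H2-D1* the X2 core was followed, after 20 bases, by the Y box core read as ATTGG. That spacing, noticed after the matches were seen, occurred in 30 of 32851 promoters (0.0913%), of 26 genes. *H2-M3*, another MHC class I gene, was also among them. The heavy chain genes are close in sequence, so their stretches are not independent occurrences. The stretches of *B2m*, *H2-K1* and *H2-D1* are shown because these 3 genes encode the light and heavy chains. Capitals mark the X2 core and the Y box core, 5′ to 3′.
*B2m*, chr2:122147609-122147638, plus strand: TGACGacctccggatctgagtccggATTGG
*H2-K1*, chr17:34000359-34000388, minus strand: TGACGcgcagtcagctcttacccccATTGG
*H2-D1*, chr17:35262993-35263022, plus strand: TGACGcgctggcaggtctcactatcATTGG

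The bases before the start of *B2m* and *H2-K1* show how the motifs lie in the promoter of the light chain gene, the class I gene called in both knockouts, and in that of a heavy chain partner. Capitals mark the same 2 cores and, in *B2m*, the interferon-stimulated response element core upstream of them.
*B2m*, chr2:122147437-122147685, plus strand: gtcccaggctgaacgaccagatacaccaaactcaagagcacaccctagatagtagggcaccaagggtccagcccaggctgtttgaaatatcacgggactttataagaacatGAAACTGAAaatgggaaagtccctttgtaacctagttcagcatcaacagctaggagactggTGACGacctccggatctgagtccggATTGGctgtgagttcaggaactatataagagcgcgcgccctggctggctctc
*H2-K1*, chr17:34000348-34000597, minus strand: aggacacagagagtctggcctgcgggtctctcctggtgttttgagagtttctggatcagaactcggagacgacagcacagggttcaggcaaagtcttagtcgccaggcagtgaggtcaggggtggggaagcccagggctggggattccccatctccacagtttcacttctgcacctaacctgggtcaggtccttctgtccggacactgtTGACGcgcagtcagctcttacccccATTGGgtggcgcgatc
A match of letters is a description of the sequence, and no binding was measured.

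To ask whether loss of *Ccnc* or *Cdk8* changed the class I genes whatever the treatment, KO and WT libraries were compared with treatment as a covariate (edgeR's quasi-likelihood test, Benjamini-Hochberg adjustment over all genes tested, called at an adjusted p under 0.05). The 2 libraries of a clone entered as separate replicates, so the adjusted p-values may be too low. In *Ccnc* KO cells 4 of the 10 genes rose (*B2m*, *Tapbp*, *H2-K1* and *Psmb9*) and 0 fell, where 7.01% of all 18577 genes tested rose and 5.28% fell. The fitted log2 fold change was above 0 for 10 of 10, with a median of 0.32 against 0.00 over all genes tested. In *Cdk8* KO cells 2 of the 10 rose (*B2m* and *H2-D1*) and 0 fell, where 2.28% of 18721 genes rose and 2.03% fell. The fitted value was again above 0 for 10 of 10, with a median of 0.62 against 0.01 over all genes. *Psmb8* had 1 to 7 counts in WT libraries of the *Ccnc* and 3 to 11 in those of the *Cdk8* multiplex. It could pass the filter on low counts through KO libraries alone, so its sign may owe to the filter. Only *B2m* among the 10 also passed a fold change of 2, in both knockouts, a mark reached upward by 1.62% of genes with *Ccnc* lost and 0.908% with *Cdk8* lost. The 10 genes were chosen with earlier results of these data known, so these shares are a description and no test of the list. With the DMSO libraries alone, *B2m* was the 1 gene called of the 9 tested in *Ccnc* KO cells, where *Psmb8* did not pass the filter. In *Cdk8* KO cells 0 of 10 were called.

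**Figure D1:**
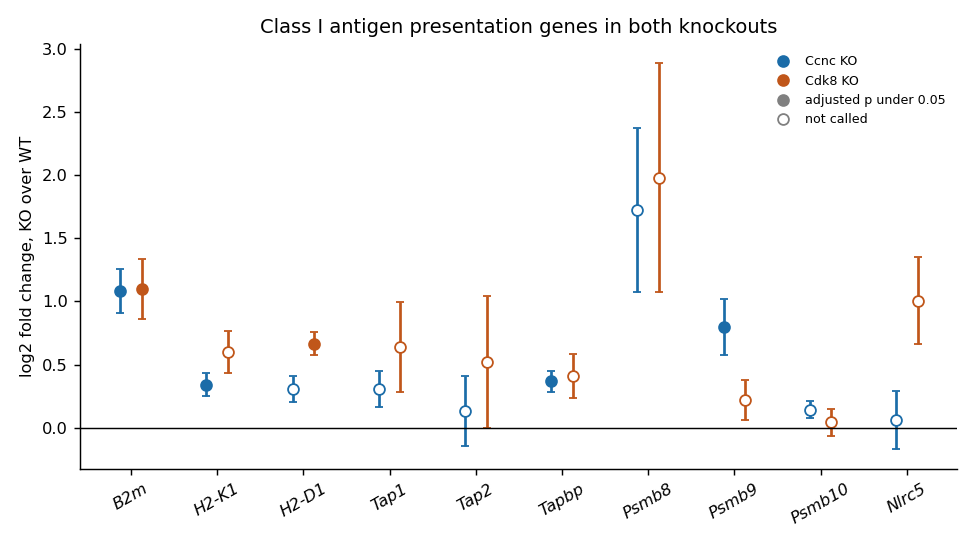
Fitted log2 fold change of each of the 10 class I genes (KO against WT, edgeR) with its standard error, for *Ccnc* KO and *Cdk8* KO mESCs; filled points passed an adjusted p of 0.05. All 10 points lie above 0 in both knockouts, and the filled ones are *B2m*, *H2-K1*, *Tapbp* and *Psmb9* for *Ccnc* KO and *B2m* and *H2-D1* for *Cdk8* KO.

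*B2m*, the light chain gene, was higher by about the same factor in both knockouts. In the *Ccnc* multiplex the WT libraries used held 3.39 and 3.44 CPM under DMSO and 3.82 CPM under ATRi. The *Ccnc* KO clones under DMSO and then ATRi held 11.0 and 6.59 (D1), 8.82 and 5.04 (G2), and 7.02 and 6.05 CPM (H5). Every KO library lay above these WT libraries, and the fitted log2 fold change was 1.08 (SE 0.18, 2.12-fold, edgeR adjusted p = 0.00102). In the *Cdk8* multiplex the same WT libraries held 4.03, 4.40 and 4.11 CPM. The *Cdk8* KO clones held 6.91 and 5.46 (B9), 11.7 and 11.4 (H4), and 9.26 and 8.67 CPM (C8). Again no KO library reached down to these WT libraries, and the log2 fold change was 1.10 (SE 0.24, 2.15-fold, edgeR adjusted p = 0.0326). For 4 of the 10 genes in each knockout, every KO library was above every WT library used. The share of all genes tested with such a gap was 7.63% in the *Ccnc* and 6.65% in the *Cdk8* multiplex.

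The WT library left out stood at the KO level for *B2m*. WT replicate 2 under ATRi held 8.43 CPM in the *Ccnc* and 8.95 CPM in the *Cdk8* multiplex, within the range of the KO libraries. With this library in the fit the log2 fold change of *B2m* was 0.62 (edgeR adjusted p = 0.213) for *Ccnc* KO and 0.74 (edgeR adjusted p = 0.140) in *Cdk8* KO cells, so the call was lost in both. Its heavy chain transcripts were not raised, at 19.1 and 8.16 CPM for *H2-K1* and *H2-D1* in the *Ccnc* multiplex, below the other WT libraries. Its primitive endoderm sum (142 and 139 CPM) was within the range of the other WT libraries, and its fibroblast sum (7.07 and 7.28 CPM) just above it. Its ES cell marker sum (3436 and 3413 CPM) was below every other WT library of its multiplex and within the range of the KO libraries. In *Cdk8* KO cells the *B2m* call was also lost without clone C8 (adjusted p = 0.129), without WT replicate 2 (0.107), without WT replicate 1 (0.519), and with a replicate block for each clone (log2 fold change 1.05, adjusted p = 0.0953).

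**Figure D2:**
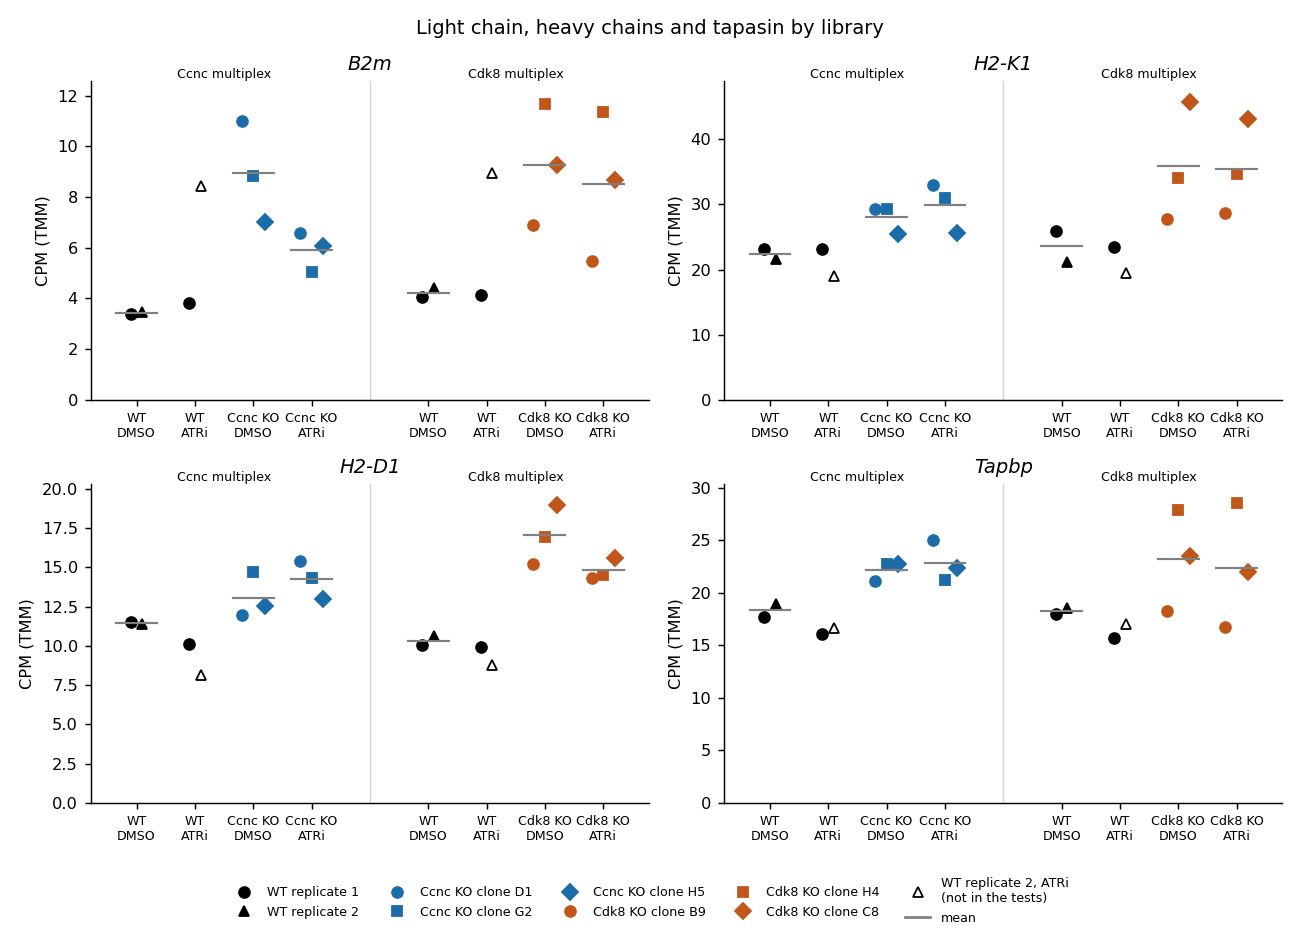
CPM of *B2m*, *H2-K1*, *H2-D1* and *Tapbp* in each library, by genotype, multiplex and treatment; WT replicate 2 under ATRi is marked as not used in the main tests. For *B2m* the KO libraries lie between 5.04 and 11.7 CPM, above the WT libraries used, and the library left out lies among them at 8.43 and 8.95 CPM.

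In the main fits the differences of the heavy chain genes were smaller than that of the light chain gene, a contrast that was not tested. With all WT libraries the log2 fold changes of *B2m*, *H2-K1* and *H2-D1* were closer. They were 0.62 (SE 0.29), 0.40 (SE 0.09) and 0.40 (SE 0.11) in *Ccnc* KO cells. In *Cdk8* KO cells they were 0.74 (SE 0.28), 0.66 (SE 0.15) and 0.69 (SE 0.09). *H2-K1* held 23.2, 21.7 and 23.1 CPM in WT and 25.4 to 33.1 CPM in *Ccnc* KO libraries. The groups did not overlap, and the log2 fold change was 0.34 (SE 0.09, 1.27-fold, edgeR adjusted p = 0.0193), a call lost without clone G2 (adjusted p = 0.0851) or either WT replicate (0.285 and 0.0734). *H2-K1* in *Cdk8* KO libraries ran from 27.8 CPM in B9 to 45.8 CPM in C8 against 21.2 to 25.9 CPM in WT. The groups were again apart, but the difference of 0.60 (SE 0.17, 1.51-fold) missed the threshold (edgeR adjusted p = 0.0756) and passed it without clone B9 (0.0147), without the filter on low counts (0.0141), with DESeq2 (0.00742) and with all WT libraries (0.66, adjusted p = 0.0287).

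*H2-D1* held 11.5, 11.4 and 10.1 CPM in WT and 12.0 to 15.4 CPM in *Ccnc* KO libraries. These did not overlap, with a log2 fold change of 0.31 (SE 0.10, 1.24-fold, edgeR adjusted p = 0.0612) that passed without clone D1 (0.0328), with DESeq2 (0.0322), without the filter on low counts (0.0428) and with all WT libraries (0.40, adjusted p = 0.0384). In the *Cdk8* multiplex WT held 10.03, 10.6 and 9.91 CPM, and the KO clones held 15.2 and 14.3 (B9), 16.9 and 14.5 (H4), and 19.0 and 15.6 CPM (C8). All 6 KO libraries were above WT, and the log2 fold change was 0.67 (SE 0.09, 1.59-fold, edgeR adjusted p = 0.00558), a call lost without WT replicate 1 (0.351). Per length, the ratio of *H2-K1* to *B2m* was 1.77 to 2.00 in WT and 0.778 to 1.80 in *Ccnc* KO libraries, and 1.41 to 1.88 against 0.853 to 1.53 in the *Cdk8* multiplex. In WT replicate 2 under ATRi it was 0.662 and 0.635, below every KO library.

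Among the genes for peptide transport and loading, *Tapbp* rose in *Ccnc* KO cells. WT held 17.7, 19.0 and 16.1 CPM, and the KO libraries held 21.1 to 25.03 CPM. These did not overlap, and the log2 fold change was 0.37 (SE 0.08, 1.29-fold, edgeR adjusted p = 0.00908), a call lost without WT replicate 1 (0.447). *Tapbp* differed among the *Cdk8* KO clones, with 18.2 and 16.7 CPM in B9, at the WT level of 15.7 to 18.5 CPM, and 27.9 and 28.5 CPM in H4. Its log2 fold change was 0.41 (SE 0.17, edgeR adjusted p = 0.211), 0.56 without B9 (0.0238) and 0.23 without H4 (0.270). The transporter genes were not called in either knockout. *Tap1* held 3.32 to 5.41 CPM in WT and 3.90 to 6.86 CPM in *Ccnc* KO libraries, which overlap (log2 fold change 0.31, SE 0.14, edgeR adjusted p = 0.174). *Tap1* in the *Cdk8* KO libraries was 11.4 and 8.35 CPM in clone H4 but 3.82 to 4.95 CPM in B9 and C8, within the WT range of 2.88 to 5.53 CPM (log2 fold change 0.64, SE 0.36, edgeR adjusted p = 0.333). *Tap2*, with 8 to 69 counts a library, also stood highest in H4 (1.79 and 1.10 CPM) and not in B9 and C8 (0.249 to 0.634 CPM), against 0.376 to 0.850 CPM in WT. Its log2 fold change was 0.13 (SE 0.28, adjusted p = 0.81) in *Ccnc* KO and 0.52 (SE 0.52, adjusted p = 0.608) in *Cdk8* KO cells.

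Of 9 further genes for peptide trimming and loading, 3 rose and 1 fell in *Ccnc* KO and 2 rose and 0 fell in *Cdk8* KO cells, with medians of 0.03 and 0.12. *Calr*, which encodes the chaperone calreticulin of the loading complex, was the gene called in both, with a log2 fold change of 0.21 in each (edgeR adjusted p = 0.0455 and 0.0417). The others, named after their values were seen, were *Erap1*, a peptide-trimming aminopeptidase of the endoplasmic reticulum (0.72, adjusted p = 0.00105), *Tapbpl*, a relative of tapasin (0.50, adjusted p = 0.00962), and *Npepps*, a cytosolic aminopeptidase (−0.21, adjusted p = 0.0164) in *Ccnc* KO cells, and *Pdia3*, an oxidoreductase of the loading complex (0.21, adjusted p = 0.0326) in *Cdk8* KO cells. The WT library left out held 821 and 783 CPM of *Calr* in the *Ccnc* and *Cdk8* multiplex. Both lay within the KO ranges, 787 to 899 and 745 to 898 CPM. None of these genes was read with the replicate block.

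Of the immunoproteasome genes, *Psmb9* rose in *Ccnc* KO cells. WT held 1.45, 1.10 and 0.798 CPM, and the KO clones held 1.30 and 1.54 (D1), 2.03 and 1.75 (G2), and 2.48 and 1.96 CPM (H5). D1 under DMSO was below the highest WT library, so the groups overlap, and the log2 fold change was 0.80 (SE 0.22, 1.74-fold, edgeR adjusted p = 0.0284). With a replicate block the call was lost (0.79, adjusted p = 0.0541), as it was without G2 (0.0831), H5 (0.100), WT replicate 1 (0.285) or WT replicate 2 (0.0928). *Psmb9* in *Cdk8* KO libraries held 1.19 to 1.73 CPM against 1.05 to 1.70 CPM in WT (log2 fold change 0.22, SE 0.16, edgeR adjusted p = 0.467).

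*Psmb8* was the least abundant of the 10, with 1, 7 and 3 counts in the WT libraries of the *Ccnc* multiplex. The *Ccnc* KO libraries held 4 and 11 (D1), 6 and 9 (G2), and 17 and 29 counts (H5), a log2 fold change of 1.73 (SE 0.65, edgeR adjusted p = 0.103). In the *Cdk8* multiplex the WT libraries held 11, 3 and 7 counts, B9 held 6 and 6, C8 17 and 29, and H4 62 and 54 (log2 fold change 1.98, SE 0.90, edgeR adjusted p = 0.241). Clone H4 was above all others and B9 was within WT, so the spread among clones was wide and neither difference passed the threshold. The value moved with single lines: in *Ccnc* KO cells it was 2.80 without WT replicate 2 (adjusted p = 0.0373), 1.14 without H5 (0.309) and 0.27 without WT replicate 1 (0.911), and in *Cdk8* KO cells 2.49 without B9 (0.0385) and 0.81 without H4 (0.508). *Psmb10* held 100 to 113 CPM in *Ccnc* KO and 79.0 to 112 CPM in *Cdk8* KO libraries against 84.4 to 104 CPM in WT, with log2 fold changes of 0.14 (SE 0.07, adjusted p = 0.19) and 0.04 (SE 0.11, adjusted p = 0.858).

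**Figure D3:**
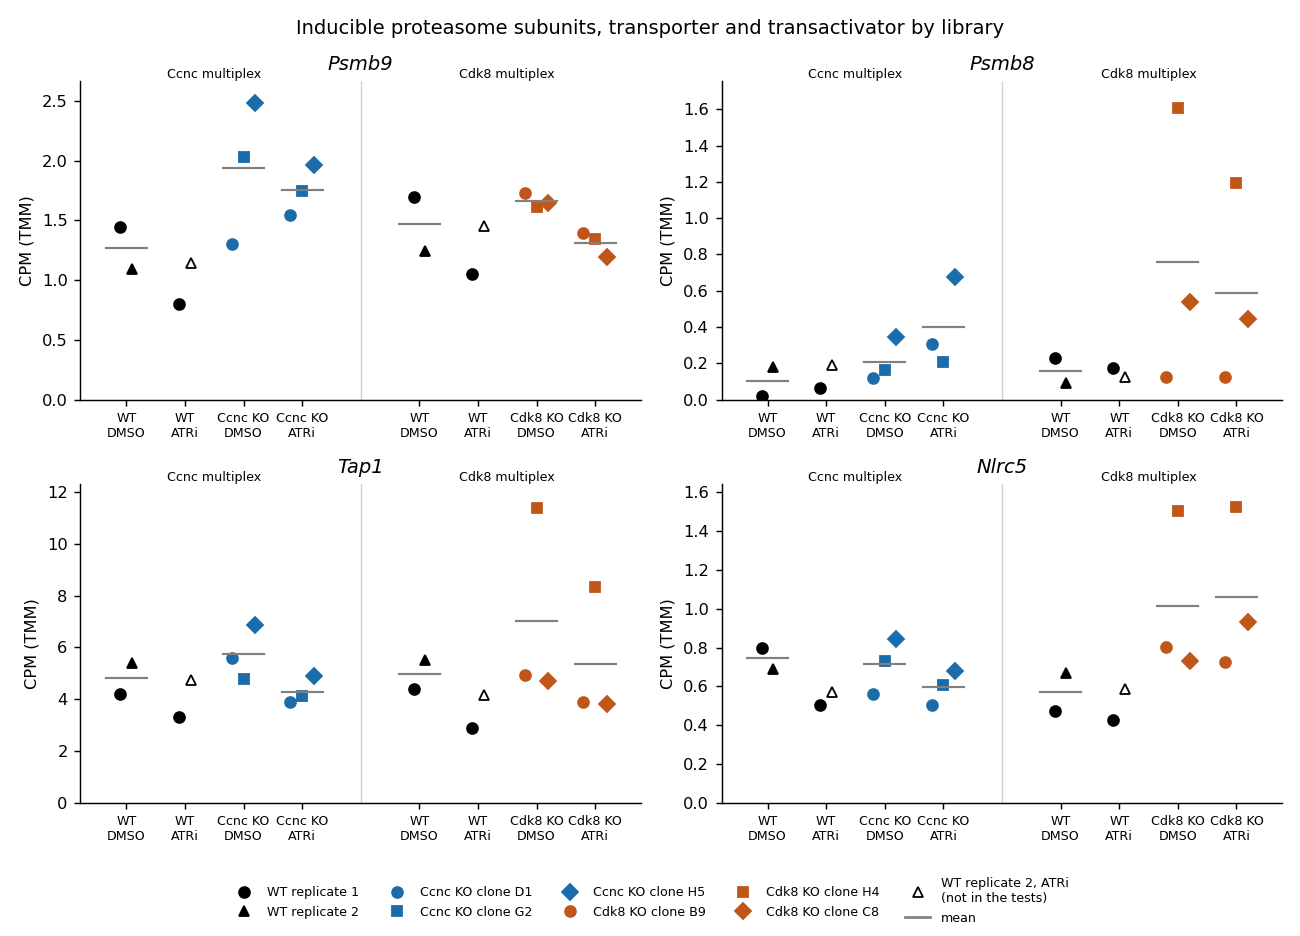
CPM of *Psmb9*, *Psmb8*, *Tap1* and *Nlrc5* in each library, by genotype, multiplex and treatment; WT replicate 2 under ATRi is marked as not used. In the *Cdk8* KO panels clone H4 is the highest for *Psmb8* (1.61 and 1.19 CPM), *Tap1* (11.4 and 8.35 CPM) and *Nlrc5* (1.51 and 1.52 CPM), while *Psmb9* overlaps WT.

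Set against its constitutive partner per length, *Psmb9* amounted to 0.104 to 0.210% of *Psmb6* in *Ccnc* KO and 0.0640 to 0.115% in WT libraries. *Psmb8* amounted to at most 0.484% of *Psmb5*, with medians of 0.0678% in *Ccnc* KO and 0.145% in *Cdk8* KO against 0.0160% and 0.0448% in WT. *Psmb10*, in contrast, made up 56.9 to 71.2% of *Psmb7* in all the KO libraries and 59.0 to 65.4% in WT. The annotated exon was 3381 bases for *Psmb8* and 3660 for *Psmb9*, against 899 for *Psmb5* and 1872 for *Psmb6*. It may be longer than the transcript made, so percentages between partners are rough. The same lengths enter for KO and WT. The partners were not called in either knockout, with log2 fold changes of −0.15 and −0.17 for *Psmb5*, 0.06 and −0.09 for *Psmb6*, and 0.01 and −0.05 for *Psmb7*. Among 19 proteasome subunits and activators, 1 rose and 1 fell in *Ccnc* KO and 0 were called in *Cdk8* KO cells. The 2, named after their values were seen, were the activator subunit gene *Psme1* (0.23, adjusted p = 0.0301) and the activator gene *Psme4* (−0.23, adjusted p = 0.0183). In the *Ccnc* multiplex the WT library left out held 85.6 CPM of *Psme1*, within the KO range of 73.9 to 87.6 CPM.

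*Nlrc5*, the class I transactivator gene, did not move with *B2m* in *Ccnc* KO cells. It held 0.505 to 0.847 CPM there and 0.504 to 0.800 CPM in WT (log2 fold change 0.06, SE 0.23, edgeR adjusted p = 0.901). In *Cdk8* KO cells the clones held 0.804 and 0.727 (B9), 1.51 and 1.52 (H4), and 0.729 and 0.931 CPM (C8) against 0.426 to 0.668 CPM in WT. The groups did not overlap, but the log2 fold change of 1.01 (SE 0.35, 2.01-fold) missed the threshold (edgeR adjusted p = 0.132), on 17 to 69 counts a library. Clone H4, which carried the highest *Nlrc5*, *Tap1*, *Tap2* and *Psmb8*, also held the highest fibroblast sums, and under DMSO the lowest ES cell sum (2762 CPM), and the part of these in its class I values was not tested. Without H4, 2 of the 10 genes were still called in *Cdk8* KO cells and their median was 0.43, with *Tap1* at 0.13 in place of 0.64 and *Nlrc5* at 0.65 in place of 1.01.

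Of the transcription regulators of the pathway, 0 of 16 rose and 2 fell in *Ccnc* KO, and 0 of 17 rose and 1 fell in *Cdk8* KO cells. The gene that fell in both was *Stat3*, a transcription factor downstream of LIF (log2 fold change −0.27 and −0.39, edgeR adjusted p = 0.00446 and 0.0201). *Relb*, an NF-κB subunit gene, fell in *Ccnc* KO cells (−0.33, edgeR adjusted p = 0.0457). *Irf1*, which encodes an interferon-induced activator of class I genes, had log2 fold changes of 0.01 and 0.09. Of the interferon signalling genes, 0 rose, with 2 of 11 falling in *Ccnc* KO and 1 of 12 in *Cdk8* KO cells. *Socs3*, which encodes a feedback inhibitor of cytokine signalling and a known LIF target, fell in both (−0.50 and −0.45, edgeR adjusted p = 0.000138 and 0.0115). *Jak1*, a kinase gene of the cytokine receptors, fell in *Ccnc* KO cells (−0.24, edgeR adjusted p = 0.0146). Across both lists the medians were between −0.05 and 0.00.

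The genes that interferon induces outside the pathway had higher medians, 0.87 in *Ccnc* KO (5 of 13 rose, 1 fell) and 1.15 in *Cdk8* KO cells (3 of 16 rose, 0 fell). The filter on low counts kept these 13 and 16 of 19 listed genes, and 13 of 20 other MHC class I genes in each multiplex. A gene could pass it through KO libraries alone, so the medians of lists with low counts may lie too high. *Gbp4*, a guanylate-binding protein gene, rose in both, from 1.00 ± 0.078 to 2.44 ± 0.327 CPM in *Ccnc* KO (SD, n = 3 and 6, edgeR adjusted p = 0.000249) and from 1.08 ± 0.066 to 2.09 ± 0.526 CPM in *Cdk8* KO cells (edgeR adjusted p = 0.0462). The 6 KO libraries come from 3 clones. With a replicate block 237 genes in all were called in *Cdk8* KO cells in place of 806. Single genes outside the 10, *Gbp4* among them, were not read with it. The others that rose, named after their values were seen, were *Gbp2* (2.57), *Igtp* (1.30), *Rsad2* (0.87) and *Oas1a* (0.78) in *Ccnc* KO and *Ifi27* (2.13) and *Ifit2* (0.49) in *Cdk8* KO cells, and *Bst2* fell in *Ccnc* KO cells (−0.32). *Igtp*, an interferon-induced GTPase gene, was also the 1 gene of these lists that ATRi lowered (log2 fold change −1.61, SE 0.35, edgeR adjusted p = 0.0386, *Ccnc* multiplex). Of the other MHC class I genes, 2 of 13 rose and 1 fell in *Ccnc* KO and 0 of 13 were called in *Cdk8* KO cells, with medians of 0.38 and 0.77. *H2-Q2* had 1 to 3 counts in WT and 5 to 19 in *Ccnc* KO libraries (log2 fold change 2.52, SE 0.56, edgeR adjusted p = 0.00885), and 2 to 6 against 8 to 27 counts in the *Cdk8* multiplex (1.78, SE 0.48, edgeR adjusted p = 0.0661). *H2-M2* had 0, 0 and 1 counts in WT and 2 to 15 in *Ccnc* KO libraries (edgeR adjusted p = 0.00378), too few in WT to give a fold, and *H2-M5* was the gene that fell (−0.29, edgeR adjusted p = 0.0300). MHC class II genes, which present to CD4 T cells, were called in neither knockout (0 of 5, medians −0.14 and −0.23), with *H2-Ab1* at 0.57 and 1.03 and *H2-Eb1* at −0.59 and −0.49.

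**Figure D4:**
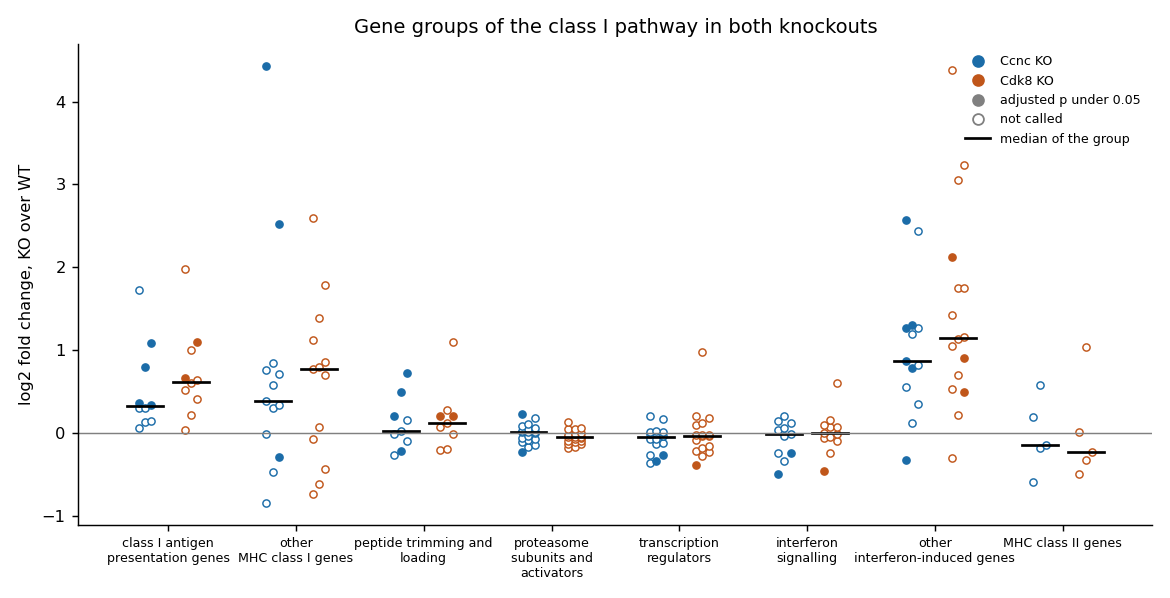
Log2 fold change of each tested gene (points) and the median (black lines) in 8 lists, with filled points past an adjusted p of 0.05, for *Ccnc* KO and *Cdk8* KO against WT. Listed genes below the filter on low counts are not shown. The class I genes (medians 0.32 and 0.62), the other MHC class I genes (0.38 and 0.77) and the other interferon-induced genes (0.87 and 1.15) have medians above 0 in both knockouts, whereas the regulators and interferon signalling genes lie near 0.

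Whether the class I genes answered to ATRi was asked with genotype as a covariate. None of the 10 was called in either multiplex, where 1.11% (*Ccnc* multiplex) and 0.0855% (*Cdk8* multiplex) of all genes tested were. At an unadjusted p under 0.05, 2 and 1 of the 10 passed in edgeR, and DESeq2 called 1 and 0. *Tap1* had the most even shift: it was lower under ATRi in 6 of 6 KO clones and in both WT replicates. Its log2 fold change was −0.46 (SE 0.13, edgeR adjusted p = 0.106) in the *Ccnc* multiplex, a call made by DESeq2 (−0.45, adjusted p = 0.0407) and without the filter on low counts (−0.45, adjusted p = 0.0279). In the *Cdk8* multiplex it was −0.51 (SE 0.33, edgeR adjusted p = 0.615), and it passed with a replicate block that pairs the libraries of each clone (−0.43, edgeR adjusted p = 0.00616), as did *Tap2* (−0.81, edgeR adjusted p = 0.0269). With that block 2107 genes in all were called in place of 16.

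*B2m* was lower under ATRi in 6 of 6 KO clones, from 8.82 to 5.04 CPM in G2 and least in H4 (11.7 to 11.4 CPM), but not in WT replicate 1 (3.39 to 3.82 CPM in the *Ccnc* multiplex). Its log2 fold change was −0.38 (SE 0.16, edgeR adjusted p = 0.252) in the *Ccnc* and −0.11 (SE 0.21) in the *Cdk8* multiplex. WT replicate 2, left out of this fit under ATRi, went from 3.44 to 8.43 CPM. The WT response in the interaction of genotype and ATRi rests on 1 ATRi library in each multiplex. A lack of calls therefore does not show that the genotypes respond alike. The interaction was called for 0 of the 10 genes and for 0% of all genes in either multiplex by edgeR, with 1 and 0 of the 10 at an unadjusted p under 0.05, and for 0 of the 10 by DESeq2. For *B2m* it was −0.76 (SE 0.31, edgeR adjusted p = 1.00) in the *Ccnc* multiplex. Over the alternatives this *B2m* interaction ran from −1.45 to −0.67, with 0 calls. *Psmb9* was lower under ATRi in 5 of 6 clones (log2 fold change −0.30, SE 0.20, edgeR adjusted p = 0.501, and −0.39, SE 0.15, edgeR adjusted p = 0.362).

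**Figure D5:**
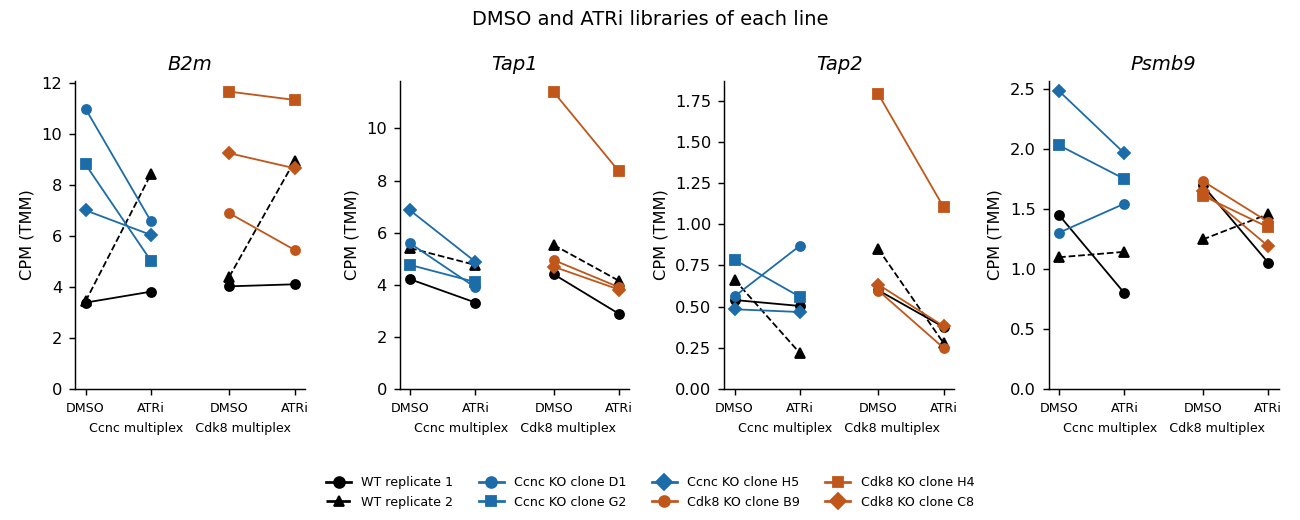
CPM of *B2m*, *Tap1*, *Tap2* and *Psmb9* under DMSO and ATRi, with a line for each clone or WT replicate; WT replicate 2 is dashed because its ATRi library was not used. *Tap1* is lower under ATRi in every line, and *B2m* is lower in all 6 KO clones while the dashed WT line goes from 3.44 to 8.43 CPM in the *Ccnc* multiplex.

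The effects of the 2 knockouts were compared in 1 fit over both multiplexes, in which the WT libraries enter once for each sequencing. The difference was called for 0 of the 10 genes by edgeR and by DESeq2, against 0.00524% of all genes, which is *Ccnc* itself. For *B2m* the *Cdk8* KO effect minus the *Ccnc* KO effect was 0.05 on the log2 scale (SE 0.31). At an unadjusted p under 0.05, 3 of the 10 stood out: *H2-D1* was further above WT in *Cdk8* KO cells by 0.33 (SE 0.14), *Nlrc5* by 1.01 (SE 0.40), and *Psmb9* was further above WT in *Ccnc* KO cells, with a difference of −0.60 (SE 0.27). None of these held after adjustment (edgeR adjusted p = 0.999 for each), so that the genes called in 1 knockout alone were not shown to differ between the knockouts.

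The genes whose log2 CPM followed *B2m* most closely over the 9 libraries of each multiplex were *Atp6ap1*, an accessory subunit gene of the vacuolar proton pump (Pearson r 0.97 in the lower of the 2 multiplexes), *Kif1a*, a kinesin motor gene (0.95), *Dpm2* (0.94), *Cmtm3* (0.93) and *Ubxn8* (0.93), of 18130 genes. The 10 class I genes themselves were not ranked. The libraries share genotype, clone and WT cells, so the r values describe these libraries only. In WT replicate 2 under ATRi (*Ccnc* multiplex), *Atp6ap1*, *Dpm2* and *Cmtm3* were above the other WT libraries, at 78.6, 59.2 and 7.18 CPM against at most 66.5, 42.0 and 5.21 CPM. *Ubxn8* and *Kif1a* were below them there, at 17.5 and 2.18 CPM against at least 23.1 and 2.22 CPM. In the *Cdk8* multiplex *Kif1a* was instead above the other WT libraries, at 3.01 CPM against 2.18 to 2.73 CPM, while the other genes kept their side. Within the pathway, *H2-K1* and *H2-D1* followed each other in both multiplexes (r 0.85 and 0.85 over 9 libraries), while *B2m* and *Nlrc5* did so in the *Cdk8* multiplex (0.90) and not in the *Ccnc* multiplex (−0.07), and likewise *Tap1* and *Tap2* (0.92 and −0.18).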

How the data were processed

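Poly(A) RNA of WT, *Ccnc* KO and *Cdk8* KO mESCs was sequenced from directional libraries. The authors trimmed reads with Trimmomatic 0.38, aligned them to GRCm38.p6 with HISAT2 2.1.0 and counted them per gene and lane with featureCounts 2.0.1, with strand used and duplicates ignored, and the deposited counts are raw. Their tables of transformed values were not used.

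The 2 lanes of each library were summed, giving 20 libraries with a median of 41972557 counts. The precision covers counting error and the spread between libraries, and clones rather than repeat cultures are the KO replicates. The main tests held no term for the clone, so the 2 libraries of a clone entered as separate replicates. Their p-values therefore do not fully count the spread between clones and may be too low. The correlation within a clone or WT replicate (limma) was 0.12 in the *Ccnc* and 0.56 in the *Cdk8* multiplex. Groups came from the labels. Genes that passed filterByExpr (18577 in the *Ccnc* and 18721 in the *Cdk8* multiplex) were tested with edgeR 4.0.16 (R 4.3.3, TMM, quasi-likelihood test, Benjamini-Hochberg over all genes tested). Levels are TMM-scaled CPM. Following the study, the ATRi library of WT replicate 2 did not enter the main tests. The procedure was tested on simulated counts. Alternatives were DESeq2 1.42.0, another scaling, no filter, all WT libraries, DMSO alone, each clone or replicate left out, and a replicate block (limma 3.58.1 for genotype effects, a fixed term in edgeR for ATRi effects). Libraries of 1 clone are paired because they come from the same cell line: deviations from the group means correlated at 0.02 to 0.18 in *Ccnc* KO and 0.18 to 0.62 in *Cdk8* KO clones.

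The genes and lists were chosen with earlier results of these data known. Named are the 10 genes, *Ccnc* and *Cdk8*, the constitutive proteasome partners, the genes of each list called in both knockouts in the same direction or otherwise the 2 of largest mean change, the 5 genes most like *B2m*, and some genes behind small counts, chosen after their values were seen.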

Additional observations from a re-analysis of the deposited data

Results flagged for a closer look

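*B2m* in WT replicate 2 under ATRi was 8.43 CPM in the *Ccnc* multiplex and 8.95 CPM in the *Cdk8* multiplex, far from the other 3 WT libraries. The gap to the nearest of them took up 0.915 and 0.924 of the range of the 4 libraries, above Dixon's critical value of 0.829. It is 1 library sequenced in both multiplexes, so the pair of values is not independent. The check was run on the WT and the KO libraries of each of the 10 class I genes in both multiplexes. No other group was flagged. Chance would single out about 1 in 20 such groups, so a few flags are expected from chance alone among all those checked. The flags by themselves therefore do not set this library apart. The cause of its *B2m* level was not tested.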

How the results depend on the processing

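The number of the 10 genes called ranged from 1 to 5 in *Ccnc* KO (4 in the main test) and from 0 to 5 in *Cdk8* KO cells (2) when each clone or WT replicate was left out. In *Ccnc* KO cells 5 were called without D1, 2 without G2 and 1 without WT replicate 1, which leaves a lone WT library assumed to vary like the others and cuts the calls over all genes from 2284 to 289. In *Cdk8* KO cells 5 were called without B9, 1 without C8 or WT replicate 2, and 0 without WT replicate 1, which left 1 call over all genes in place of 806. With DMSO alone 1 of the 9 genes tested was called in *Ccnc* KO and 0 of 10 in *Cdk8* KO cells, on 635 and 5 calls over all genes. *Psmb8* did not pass the filter in the former. With the replicate block 1 of the 10 was called in *Cdk8* KO cells (237 genes in all), *H2-D1*. The ATRi effect was called for 1 gene (*Tap1*) in the *Ccnc* multiplex by DESeq2 and without the filter, and for 2 genes (*Tap1* and *Tap2*) in the *Cdk8* multiplex with the replicate block, which called 451 and 2107 genes in all in place of 206 and 16. Beside these, the block ended the call of *Psmb9* in *Ccnc* KO cells (0.79, adjusted p = 0.0541) and, among the 10 class I genes, changed no other call; it and the other alternatives were not run for single genes outside the 10. The interaction could not be fitted without WT replicate 1. Calls over all genes also moved with DESeq2 (1733 in *Cdk8* KO, 653 and 381 for ATRi) and without the filter (845 and 41 for ATRi). Of the single-gene values, 302 kept direction and side of the threshold, 16 passed it, 21 lost it and 11 turned sign. Those that turned were *Nlrc5* in *Ccnc* KO cells (−0.045 with DMSO alone, −0.062 without H5, and −0.062 to 0.18 over all omissions of a clone or replicate), *Tap2* in *Ccnc* KO (−0.14 without WT replicate 1, −0.14 to 0.31) and in *Cdk8* KO cells (−0.22 without H4, −0.22 to 0.83), *Psmb10* in *Cdk8* KO cells (−0.074 without C8 and −0.01 without WT replicate 2, −0.074 to 0.16), *B2m* under ATRi in the *Cdk8* multiplex (0.16 with all WT libraries), and the difference between knockouts for *B2m* (below 0 without G2, H5, H4 or WT replicate 1, −0.18 to 0.26), none of which was called. Their cause was not tested. Depth limits *Psmb8*, *Tap2* and *Nlrc5*, at under 70 counts a library.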

Other observations

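The same WT library, sequenced in the *Ccnc* and in the *Cdk8* multiplex, gave *B2m* values that differed by 6.01 to 24.4% of their mean, on 135 to 310 counts.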
